A study of Homo sapiens with 6 samples.

Results

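The cells described here were the SK-N-BE(2)-C cells, an established human neuroblastoma line, that carried the most and the least RNA of 9 mesenchymal marker genes under DMSO, the solvent control. In each of the 2 DMSO libraries, barcodes with at least 1000 unique molecular identifiers (UMIs), at least 500 genes and at most 20% mitochondrial UMIs were taken as cells. The score of a cell was the percent of its UMIs that came from VIM, FN1, SPARC, CD44, LGALS1, ANXA1, S100A6, TAGLN and COL4A1. Within each library the 25% of cells with the highest score are called high cells and the 25% with the lowest score low cells. This gave 297 high and 297 low cells among 1187 in DMSO replicate 1, and 421 and 421 among 1682 in DMSO replicate 2. Both sides together held 1436 of the 11937 cells that passed the same filter in all 6 libraries. Because these 9 genes chose the cells, their own levels are a description and enter no test.

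The study measured single-cell RNA with Seq-Well S3, in which cells share small wells with barcoded beads, after treatment of the line with DMSO, TSA or E6R (2 libraries each). TSA is the usual abbreviation of trichostatin A, which blocks histone deacetylase activity; the sources used here give neither the structure of E6R nor any dose or time. All libraries came from this 1 line, and nothing in the labels says whether the libraries of a treatment came from separate cultures, so the p-values measure the spread between these libraries, which may be technical. The TSA and E6R libraries were used here only for the shared estimate of spread and to look at the same high and low sides outside DMSO.

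Neuroblastoma cells are known to occupy an adrenergic state and a mesenchymal state, and cells of a single line can hold both. The adrenergic state is held by transcription factors such as HAND2 and GATA3 and carries the enzymes and storage proteins of catecholamine-releasing cells, among them DBH and the chromogranins. The mesenchymal state resembles migratory neural crest cells, with extracellular matrix, integrins and actin-linked proteins, and AP-1, YAP, TAZ and TEAD are among the factors tied to it. SK-N-BE(2)-C is known for amplification of MYCN and for cells of intermediate appearance.

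The 2 DMSO libraries differed in how far the score spread, and this touches every result that follows. The median score was 0.151% in replicate 1 and 0.161% in replicate 2, so the middle of the distributions was alike. In replicate 1 the variance of the score was 6.12 times the variance that counting error alone gives, and 30 cells (2.53%) had a score of 1% or more. In replicate 2 the variance was 1.19 times that of counting error and no cell reached 1%; the highest score was 0.904%, against 2.22% in replicate 1. High cells held a median of 11 marker UMIs against 0 in low cells of replicate 1, and 5 against 1 in replicate 2. At the thresholds, the lowest high score was 0.295% and the next cell below it had 0.294% in replicate 1, while in replicate 2 these scores were 0.230% and 0.2295%. The highest low score was 0.0697% with the next cell at 0.0698% in replicate 1, and 0.0882% with the next at 0.0887% in replicate 2. Barcodes under 300 UMIs gave 0.179% and 0.157% of their UMIs to the 9 markers, against 0.228% and 0.176% over all cells of the 2 libraries. The DMSO libraries shared 7 cell barcodes, and pairs among all 6 libraries shared 6 to 28.

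**Figure D1:**
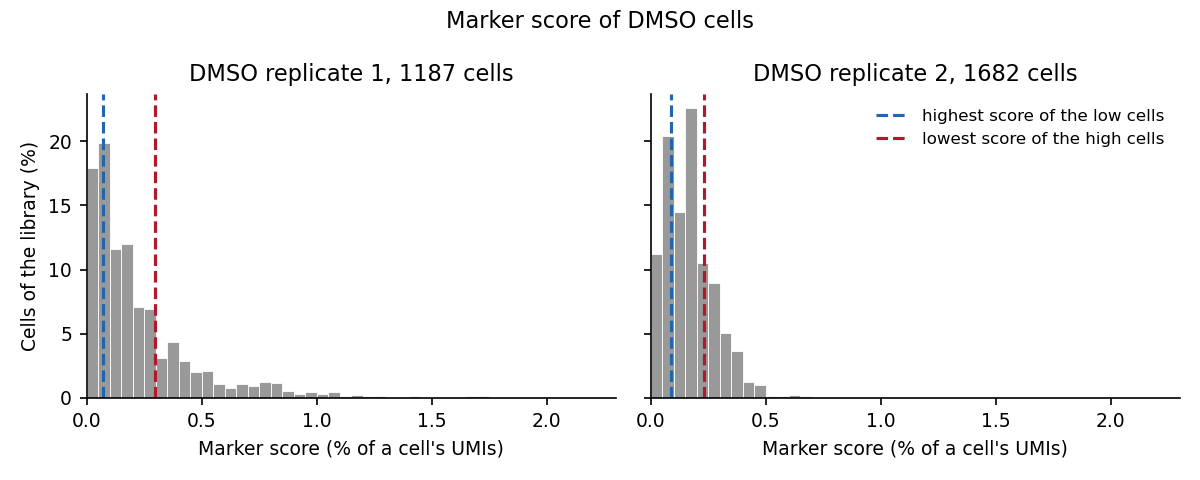
Distribution of the marker score over the cells of each DMSO library; the x axis is the percent of a cell's UMIs from the 9 markers in steps of 0.05%, the y axis the percent of the library's cells, and dashed lines mark the edges of the low and high sides. Replicate 1 has a tail up to 2.22%, and replicate 2 ends at 0.904%.

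The name mesenchymal-high was checked by leaving each marker out of the score in turn, choosing the sides again with the other 8, and reading the marker that had been left out. VIM, the intermediate filament protein vimentin, stood at 2654 UMIs per 1000000 of the sum (CPM, here with the 9 markers left out of the sum) in high cells of replicate 1. It stood at 482 in low cells of replicate 1, and at 930 and 708 in high and low cells of replicate 2. FN1, fibronectin, stood at 451 and 22.4 CPM in replicate 1 but at 28.96 and 17.1 in replicate 2, which rests on 25 and 13 UMIs. SPARC, a matrix-binding glycoprotein, stood at 957 and 118 CPM in replicate 1 and at 56.8 and 54.9 in replicate 2. In replicate 1 the 8 markers other than ANXA1 were higher on the high side by log2 ratios between 1.61 (S100A6) and 4.33 (FN1), and ANXA1 had 22 UMIs against 0. In replicate 2 the same ratios lay between -0.84 (TAGLN, 9 against 14 UMIs) and 1.37 (COL4A1, 6 against 2 UMIs), and ANXA1 had 0 against 1 UMI. The markers therefore moved with each other across cells in replicate 1, and hardly or not at all in replicate 2, where the label rests mainly on VIM and S100A6, which gave 45.1% and 30.0% of the marker UMIs.

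**Figure D2:**
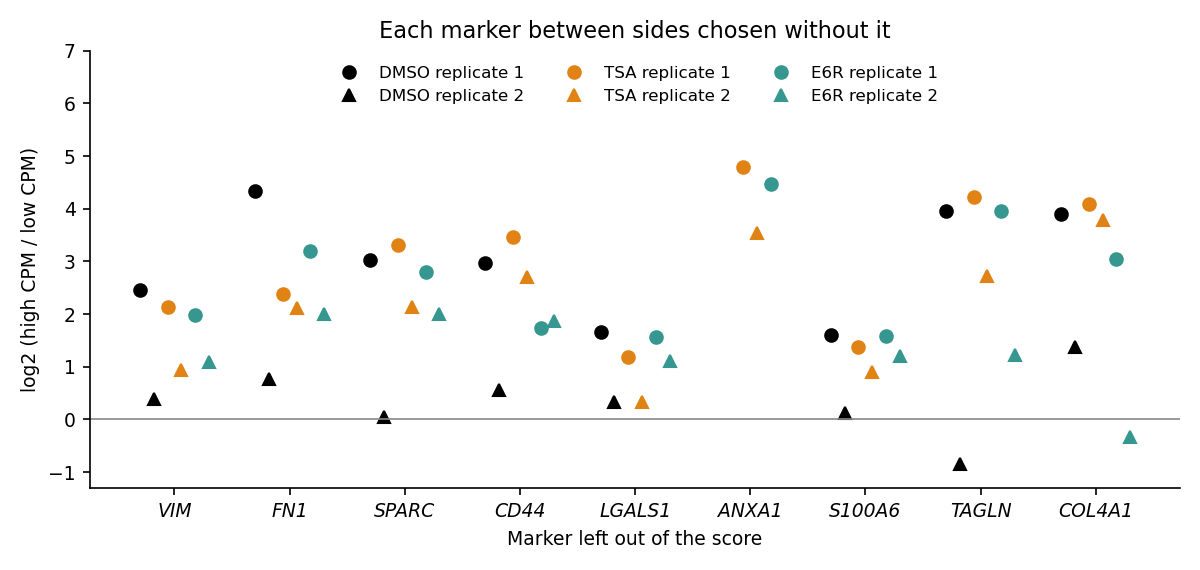
Each marker between high and low sides chosen without it, as the log2 ratio of its CPM (y axis) for the 9 markers (x axis); circles are libraries numbered 1, triangles libraries numbered 2, and colours the treatments. ANXA1 has no point where a side had 0 UMIs. DMSO replicate 2 lies near 0 for most markers, between -0.84 and 1.37.

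Genes outside the score were tested by setting the summed UMIs of the high cells against those of the low cells of the same library, with the TSA and E6R libraries in the same fit. Levels of these genes are given as CPM of the sum, with the 9 markers left out of the total and the total scaled by TMM. The sums held 818180 and 940443 UMIs (high and low) in replicate 1, and 873089 and 745370 in replicate 2. Of 13529 genes tested, 61 (0.451%) were higher and 2 (0.0148%) lower in high cells at an adjusted p under 0.05 in edgeR's quasi-likelihood test, and 1132 genes had an unadjusted p under 0.05. In both directions together, 0.466% of genes were called. Among the 12 largest rises were matrix proteins (COL5A1, LTBP2, MGP), a protease and a protease inhibitor (PRSS23, TFPI2) and adhesion proteins (ITGA3, FBLIM1).

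That count leaned on DMSO replicate 1. Without replicate 1 it was 2 genes, CAVIN1 higher and LINC01304 lower, both named after the values were seen, and without replicate 2 it was 468. With the DMSO libraries alone, or without the library block, 0 genes passed in edgeR, with 512 and 700 genes at an unadjusted p under 0.05. Over the 7237 genes with a mean of at least 20 CPM, the log2 ratios of the 2 libraries correlated at r = 0.204 (Spearman's rho 0.154), a description across genes that share library depth. In replicate 1, 703 of them differed at least 2-fold between sides and in replicate 2, 128; 27 were at least 2-fold higher in both and 3 at least 2-fold lower in both. Of the 61 higher genes, 61 were higher in replicate 1 and 51 in replicate 2, with median log2 ratios (on CPM + 1) of 3.99 and 0.97, values that describe genes chosen by this test.

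Enzymes and inhibitors that act on the matrix and at the cell surface were among the largest rises. PRSS23, a secreted serine protease (chr11:86791059-86952910 in GRCh38), stood at 358 CPM in high and 4.61 in low cells of replicate 1, and at 6.34 and 2.44 in replicate 2. High cells lay above low cells in both libraries, as every gene named as a largest rise had to, but in replicate 2 on 6 against 2 UMIs. The log2 fold change of PRSS23 in edgeR was 5.66 (SE 0.59, adjusted p = 9.77e-05). TFPI2, a Kunitz-type protease inhibitor laid down in the matrix (chr7:93885396-93890991), stood at 343 and 20.3 CPM in replicate 1 and at 38.04 and 13.4 in replicate 2, with 18 of its 36 high-side UMIs of replicate 2 in 1 cell. Its log2 fold change was 3.27 (SE 0.43, adjusted p = 0.000491). PROCR, the endothelial protein C receptor (chr20:35172073-35216240), stood at 219 and 33.2 CPM in replicate 1 and at 17.96 and 7.31 in replicate 2 (log2 fold change 2.43, SE 0.40, adjusted p = 0.00483). The 2 libraries differed in the level of PROCR more than the sides of replicate 2 did.

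Matrix components and adhesion proteins formed the next group. COL5A1, a chain of fibrillar collagen V (chr9:134641774-134844843), stood at 182 and 5.53 CPM in replicate 1 and at 13.7 and 8.52 in replicate 2 (log2 fold change 3.67, SE 0.64, adjusted p = 0.00834). LTBP2, a matrix protein of the latent TGF-beta binding family (chr14:74498170-74612378), stood at 219 and 10.1 CPM and at 16.9 and 8.52 (log2 fold change 3.48, SE 0.60, adjusted p = 0.00767). MGP, matrix Gla protein, an inhibitor of calcification (chr12:14881181-14885926), stood at 465 and 74.6 CPM and at 61.3 and 21.9 (log2 fold change 2.25, SE 0.35, adjusted p = 0.00232). For these 3 genes the high side was above the low side within each library, which the rule for naming the largest rises required. The high cells of replicate 2 stayed far below those of replicate 1. ITGA3, a laminin-binding integrin chain (chr17:50055968-50090481), stood at 186 and 11.1 CPM in replicate 1 and at 48.6 and 26.8 in replicate 2 (log2 fold change 2.52, SE 0.50, adjusted p = 0.0206). FBLIM1, a filamin-binding protein of cell-matrix junctions (chr1:15756607-15786594), stood at 216 and 15.7 CPM and at 21.1 and 17.0 (log2 fold change 2.54, SE 0.51, adjusted p = 0.0243). Replicate 2 showed next to no difference in FBLIM1, with 20 against 14 UMIs.

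CAVIN1, a coat protein of the membrane pits called caveolae (chr17:42402452-42423517), had the highest level among the largest rises, at 1167 and 16.6 CPM in replicate 1 and 109 and 21.9 in replicate 2. Its log2 fold change was 4.60 (SE 0.56, adjusted p = 0.000252), and 203 of 297 high cells of replicate 1 had a UMI of it against 16 of 297 low cells. In replicate 2, 34 of its 103 high-side UMIs came from 1 cell and the rest from 25 others. LRRC17, a secreted leucine-rich repeat protein (chr7:102912991-102944949, overlapping FBXL13 on the other strand), stood at 996 and 29.5 CPM in replicate 1 and at 13.7 and 8.52 in replicate 2 (log2 fold change 4.37, SE 0.58, adjusted p = 0.000491). SEMA3C, a secreted guidance cue (chr7:80742538-80922359), stood at 153 and 13.8 CPM and at 23.3 and 17.0 (log2 fold change 2.33, SE 0.46, adjusted p = 0.0208). In replicate 1 these 3 genes stood far apart between the sides, and in replicate 2 only CAVIN1 did. DESeq2 also called CAVIN1, TFPI2, PROCR, SEMA3C and MGP, and did not call PRSS23, LRRC17, COL5A1, LTBP2, FBLIM1 or ITGA3. In DESeq2 the log2 fold change of PRSS23 was 4.25 (adjusted p = 0.272, and 9.15e-25 to 1 over its 22 alternatives), and that of LRRC17 was 3.02 (adjusted p = 0.701, and 1.9e-24 to 1 over its 23 alternatives).

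**Figure D3:**
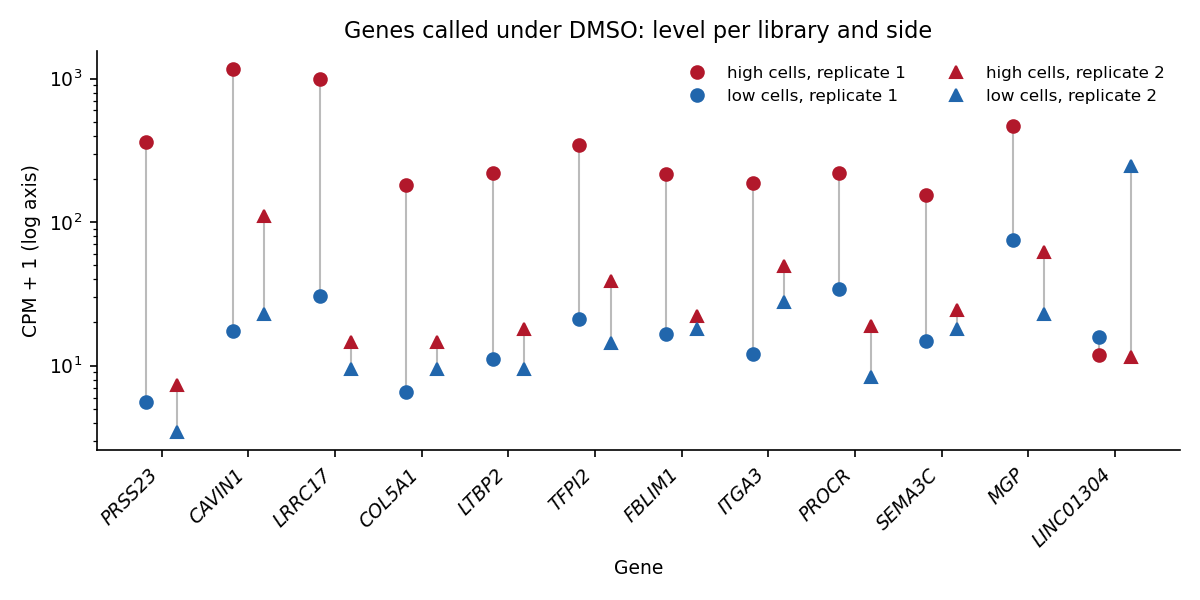
Level of 11 of the largest rises and of LINC01304 (x axis) in high (red) and low (blue) cells of each DMSO library, as CPM + 1 on a log axis; each point is the sum of 1 side of 1 library, and grey lines join the sides of a library. For the rises, circles (replicate 1) lie farther apart than triangles (replicate 2), and for LINC01304 the triangles do; CAVIN1, for example, lies at 1167 and 16.6 against 109 and 21.9 CPM.

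Other genes that passed are named here after their values were seen. KRT18, a keratin of simple epithelia, stood at 176 and 2.76 CPM in replicate 1 (161 against 3 UMIs) and at 4.23 and 1.22 in replicate 2 (4 against 1 UMI). FOSL1, an AP-1 subunit, had 57 UMIs in high and 0 in low cells of replicate 1 and 5 against 1 in replicate 2. CRIM1 had 43 against 0 UMIs and 1 against 0, and AXL, a receptor tyrosine kinase, 41 against 2 and 0 against 0, so these calls rest on replicate 1. The neuropeptide VIP, which sympathetic neurons can release, stood at 959 and 146 CPM in replicate 1 and at 166 and 84.0 in replicate 2 (log2 fold change 1.94, SE 0.35, adjusted p = 0.0109). NPY, another sympathetic peptide, stood at 333 and 52.5 CPM and at 215 and 121 (log2 fold change 1.72, SE 0.34, adjusted p = 0.0203). The peptides were thus higher on the mesenchymal side in both libraries, although 100 of 876 high-side VIP UMIs of replicate 1 and 34 of 203 NPY UMIs of replicate 2 came from 1 cell each. IL13RA2, a decoy receptor of interleukin 13, stood at 218 and 25.8 CPM in replicate 1 and at 153 and 63.3 in replicate 2 (log2 fold change 2.13, SE 0.34, adjusted p = 0.00359). SLC7A11, the cystine transporter, stood at 89.8 and 11.98 CPM and at 42.3 and 12.2 (log2 fold change 2.43, SE 0.40, adjusted p = 0.00414), the sides of both libraries being apart. PLAUR, the urokinase receptor, stood at 61.3 and 2.76 CPM and at 28.5 and 7.31 (log2 fold change 3.204, SE 0.59, adjusted p = 0.0117).

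Among the lower calls was LINC01304, a long noncoding RNA (chr2:3957655-3974070), at 10.95 and 14.7 CPM in replicate 1 and at 10.6 and 246 in replicate 2 (log2 fold change -3.13, SE 0.68, adjusted p = 0.0379). Of its 202 low-side UMIs in replicate 2, 187 came from 1 cell, so its call describes that cell, and DESeq2 did not call it.

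Promoters are shown because AP-1 and TEAD are the factors usually tied to mesenchymal genes and because an AP-1 subunit is among the higher genes. The RefSeq table (GRCh38.p14, 250 bases before to 50 after each start) held 42 of the 61 higher genes. The AP-1 letters TGANTCA, searched on both strands, were in 7 of the 42 (16.7%), against 433 (4.25%) of the 10187 promoters of all genes tested and 7.76% of the 27305 promoters in the table. The middle letter N stands for any base, so the search is looser than TGACTCA and TGAGTCA. SH3BP4, TFPI2 and ANKRD1 held only TGAATCA, or TGATTCA, which is TGAATCA read on the other strand. VEPH1, CPA4, EMP1 and PLAUR held TGAGTCA, which reads TGACTCA on the other strand. Shares for the stricter letters were not counted. The TEAD letters GGAATG were also in 7 (16.7%), against 10.6% of promoters of tested genes and 14.0% of all. Of the 12 largest rises 8 had a promoter there, 1 with the AP-1 letters and 0 with the TEAD letters. The GC box GGGCGG was in 61.9% against 70.8%, and the TATA box TATAAA in 14.3% against 5.22%. The serum response element was searched only as exact CArG sequences with every base fixed. These were in 0 of the 42 and in 0.0982% of promoters of tested genes. Other CArG sequences were not searched, so this search cannot tell whether the element is absent. The 250 bases before the start are given for 3 higher genes with AP-1 letters, in capitals for AP-1 and TEAD letters; a match is a description of the letters only. TFPI2 was described above, EMP1 codes for an epithelial membrane protein, and ANKRD1 for an ankyrin repeat protein known as a YAP target.
TFPI2, chr7:93890754-93891003, minus strand, AP-1 letters from base -87: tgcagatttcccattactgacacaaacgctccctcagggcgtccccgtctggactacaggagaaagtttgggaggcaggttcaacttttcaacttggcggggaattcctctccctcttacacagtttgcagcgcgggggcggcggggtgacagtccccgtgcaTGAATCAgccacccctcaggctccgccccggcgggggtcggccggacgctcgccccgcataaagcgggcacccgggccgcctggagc
EMP1, chr12:13196476-13196725, plus strand, AP-1 letters from bases -175 and -48: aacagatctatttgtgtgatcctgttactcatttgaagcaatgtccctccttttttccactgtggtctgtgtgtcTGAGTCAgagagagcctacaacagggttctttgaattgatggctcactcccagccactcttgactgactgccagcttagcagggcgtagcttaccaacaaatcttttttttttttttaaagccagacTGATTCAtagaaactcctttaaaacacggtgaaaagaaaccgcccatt
ANKRD1, chr10:90921088-90921337, minus strand, AP-1 letters from base -195 and TEAD letters from bases -220 and -128: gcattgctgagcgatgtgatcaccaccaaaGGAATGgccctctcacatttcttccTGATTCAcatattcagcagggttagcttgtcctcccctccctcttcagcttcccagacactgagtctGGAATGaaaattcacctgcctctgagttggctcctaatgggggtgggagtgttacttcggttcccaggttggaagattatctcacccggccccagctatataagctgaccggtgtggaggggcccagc

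EMP1 stood at 63.5 CPM in high and 1.84 in low cells of replicate 1 and at 4.23 and 0 in replicate 2. ANKRD1 stood at 136 and 1.84 CPM in replicate 1 but at 9.51 and 9.74 in replicate 2. So of the 3 genes with promoters shown, ANKRD1 was higher in the high cells of replicate 1 only. In replicate 2 the difference of EMP1 rests on a few UMIs, and that of TFPI2 in large part on 1 cell, as given above.

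Of 33 further mesenchymal genes outside the score, 32 were tested. COL3A1, COL5A1, CCN1, CAVIN1, AXL and FOSL1 were among the 7 of 32 that were higher, beside 0.451% of all genes, and 0 were lower. The median fitted log2 fold change of the list was 1.75 (1.63 with CCN2, which had no UMI in low cells, at its lower bound), beside 0.00 over all genes tested, and 29 of 32 were fitted higher. By library, the median log2 ratio was 2.38 in replicate 1 and 0.28 in replicate 2. Among members that missed the threshold, BGN, the proteoglycan biglycan, stood at 702 and 158 CPM in replicate 1 and at 119 and 81.6 in replicate 2 (log2 fold change 1.45, SE 0.34, adjusted p = 0.0744). TIMP1, an inhibitor of matrix metalloproteases, stood at 288 and 91.2 CPM and at 266 and 170 (adjusted p = 0.170), and ITGB1, the common integrin beta chain, at 762 and 252 and at 393 and 312 (adjusted p = 0.257). ZEB1, a repressor tied to epithelial-mesenchymal transition, went the other way, at 81.0 and 122 CPM and at 62.3 and 67.0 (adjusted p = 0.799). COL1A2, the collagen I chain that fibroblasts make in quantity, had 0 and 0.92 CPM in replicate 1 and 4.23 and 7.31 in replicate 2.

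Of the 12 annexin and S100 genes, 0 passed and 12 were fitted higher, the median log2 change being 0.97. S100A10, the partner of annexin A2, stood at 336 and 36.9 CPM in replicate 1 and at 334 and 220 in replicate 2 (adjusted p = 0.0969). ANXA2 itself stood at 2003 and 418 CPM and at 857 and 597 (adjusted p = 0.116). The high cells of both libraries held about the same level of S100A10, and the libraries differed in their low cells. Of the 25 actin cytoskeleton genes tested, 0 passed and 25 were fitted higher, with a median of 0.60; TPM1, a tropomyosin, stood at 1160 and 293 CPM and at 373 and 292, and ACTB at 1647 and 1070 and at 1330 and 1237. Of 14 chaperones of the endoplasmic reticulum 0 passed (median 0.38), and of 12 immediate-early genes 0 passed (median 0.45). PFKP, a phosphofructokinase of glycolysis, was the 1 higher gene among 15 of the glycolysis and hypoxia list, at 171 and 24.0 CPM and at 46.5 and 24.4 (log2 fold change 2.05, SE 0.40, adjusted p = 0.0203), while the median of that list was 0.17. GAPDH stood at 7578 and 6735 CPM and at 5341 and 4750, and of 83 ribosomal protein genes 0 passed, with a median of 0.01. None of the 13 genes of the mitochondrial genome (median -0.14), the 12 heat shock genes (-0.11) or the 5 nuclear long noncoding RNAs (-0.17) passed.

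Adrenergic genes split by member and by library. Of 20 tested, 1 was lower (beside 0.0148% of all genes), 0 were higher, and the median log2 fold change was -0.27; by library it was -0.56 in replicate 1 and -0.01 in replicate 2. CHGA, chromogranin A of the secretory granules, stood at 668 and 2453 CPM and at 507 and 839 (log2 fold change -1.31, SE 0.34, adjusted p = 0.117), lower on the high side in both libraries without passing. CHGB stood at 207 and 520 CPM and at 1214 and 1252, DBH, which makes noradrenaline, at 103 and 217 and at 681 and 688, and GATA3 at 98.6 and 205 and at 111 and 119. Each of these 3 differed at least 2-fold between sides in replicate 1, while in replicate 2 the sides lay close together. HAND2 stood at 163 and 186 CPM and at 267 and 254, TBX2 at 202 and 220 and at 167 and 168, and ISL1 at 61.3 and 49.8 and at 52.8 and 53.6, so the sides lay close together for these transcription factors in both libraries. MYCN stood at 227 and 501 CPM in replicate 1 and at 301 and 306 in replicate 2 (log2 fold change -0.59, SE 0.30, adjusted p = 0.635). Of 23 neuronal genes 0 passed and the median was 0.02; STMN2, a microtubule regulator of growing axons, stood at 244 and 287 CPM and at 306 and 253, and GAP43 at 147 and 66.3 and at 212 and 191.

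The order of cells along the score showed these changes in steps in replicate 1. Cells were grouped by score below 0.25% (813 cells), 0.25 to 0.5% (229), 0.5 to 1% (115) and 1% or more (30), and their UMIs summed as plain CPM, with no test because cells of 1 library are not replicates. MYCN stood at 519, 411, 180 and 9.56 CPM over these groups, the last being 1 UMI among 104610. CHGB stood at 572, 297, 190 and 9.56, CHGA at 2286, 1137, 697 and 124, and DBH at 254, 173, 111 and 0. HAND2 stood at 227, 202, 183 and 182 CPM and TBX2 at 237, 228, 223 and 229. HAND2 and TBX2 thus stayed nearly level where MYCN and CHGB were down to 1 UMI each. This did not hold for every factor of the list: GATA3 was lower in high than in low cells of replicate 1, as given above. In the other direction, CAVIN1 stood at 70.7, 624, 1734 and 1874 CPM, LRRC17 at 58.1, 346, 1397 and 2868, and KRT18 at 5.73, 35.3, 245 and 621. TFPI2 and PROCR peaked at 400 and 253 CPM in the group from 0.25% and stood at 76.5 and 66.9 in the top group. In replicate 2 the groups held 1332, 335 and 15 cells and none of 1% or more; CAVIN1 stood at 29.5, 90.6 and 709 CPM and MYCN at 340, 347 and 98.4, with the last value of each from those 15 cells. The median UMIs per cell over the 4 groups of replicate 1 were 1891, 1769, 1832 and 2127.

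**Figure D4:**
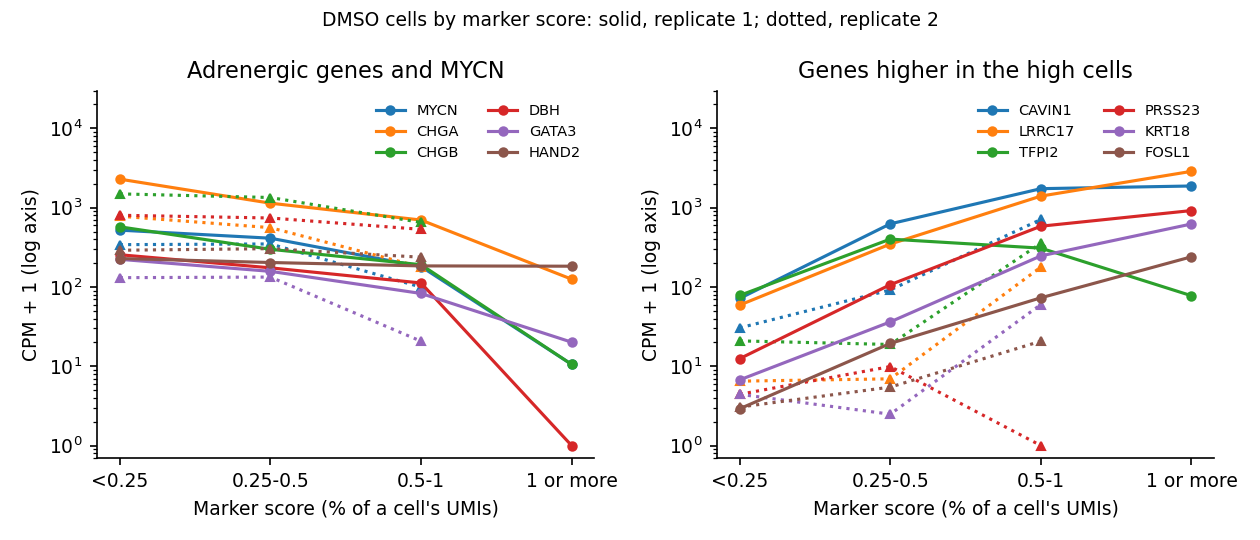
CPM + 1 on a log axis (y) of adrenergic genes with MYCN (left) and of genes higher in high cells (right), against groups of DMSO cells by marker score in percent of UMIs (x); solid lines are replicate 1, dotted lines replicate 2, which has 15 cells in its last group. In replicate 1, MYCN goes from 519 to 9.56 CPM while HAND2 stays between 182 and 227.

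Proliferation genes were lower on the high side without passing the test under DMSO. Of 33 S phase genes 0 passed and 0 were fitted higher (median -0.44), and of 40 G2/M genes 0 passed and 1 was fitted higher (median -0.35). By library, the medians were -0.80 and -0.20 for the S phase genes and -0.52 and -0.16 for the G2/M genes (replicates 1 and 2), and without DMSO replicate 1 the fitted medians were -0.089 and -0.054. MKI67, a marker of cycling cells, stood at 491 and 886 CPM in replicate 1 and at 561 and 780 in replicate 2 (adjusted p = 0.509), and TOP2A at 635 and 914 and at 1043 and 1175 (adjusted p = 0.791). The median share of UMIs from G2/M genes was 0.389% in high and 0.789% in low cells of replicate 1, and 0.885% and 0.893% in replicate 2. CCND1 stood at 1211 and 799 CPM and at 1221 and 999.5, higher in high cells of both libraries without passing (adjusted p = 0.688). Depth moved little with the sides: cells held a median of 1849 (high) and 1881 (low) UMIs in replicate 1 and 1455 and 1421 in replicate 2, with 6.09% and 6.69% and 6.24% and 6.42% mitochondrial UMIs. When each cell was thinned to 1000 UMIs before scoring, 5 genes passed, among them CAVIN1, LRRC17 and PRSS23 higher and LINC01304 lower. Many thinned cells tied in score, which also changed the sides. They held 376 high and 313 low of 1187 cells in replicate 1, and 837 and 845 of 1682 in replicate 2. Depth and the wider sides cannot be told apart in that count. Leaving out the top 5% of cells by UMI number, where doublets would be most frequent, left 37 genes.

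Markers of other cell types were looked for on both sides. Of 7 Schwann cell markers 2 were tested, of 5 fibroblast markers 3 and of 5 blood and endothelial markers 3. Under DMSO 0 passed, with median log2 fold changes of 0.39, -0.01 and 1.23. Under TSA 1, 1 and 0 were called higher, and under E6R 0, 1 and 2 (beside 1.32% and 4.18% of all genes). In a fit of side within replicate number, given below, 1, 3 and 3 were called higher in the libraries numbered 1, with medians of 0.73, 1.30 and 2.41. In those numbered 2 it was 0 for each list (9.99% and 1.25% of all genes were higher). Among the Schwann markers SOX10 was at 0 in every group of DMSO cells, and the 7 together stood at 18.3 and 12.6 CPM in high and 14.9 and 17.4 in low cells (replicates 1 and 2). Of the fibroblast markers, POSTN was at 0 throughout, and the list summed to 85.6 and 11.5 CPM in high and 56.4 and 12.1 in low cells, most of it DCN. DCN stood at 64.2 CPM in cells below 0.25% and 9.56 in those of 1% or more in replicate 1, the last being 1 UMI. By side, the fibroblast list went the other way in replicate 1, at 85.6 CPM in high and 56.4 in low cells. Of the blood and endothelial markers, PTPRC and HBB were at 0 in all groups of replicate 1. In replicate 2, 4 of the 5 had a UMI in high cells and 5 of the 5 in low cells, so neither was absent there. The blood and endothelial list summed to 103 and 13.7 CPM in high and 18.1 and 18.8 in low cells. Among its members PECAM1, an endothelial adhesion protein, stood at 50.4 CPM in high and 0.92 in low cells of replicate 1 and at 1.06 and 2.44 in replicate 2 (adjusted p = 0.0969). In the edgeR fit by replicate number, PECAM1 had log2 fold changes of 3.92 in the libraries numbered 1 and -0.10 in those numbered 2 (adjusted p of the difference 0.0381). The part of these markers in the other differences was not tested.

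The same sides in the TSA and E6R libraries served as samples the rule had not used. Of the 61 genes higher under DMSO, 44 were called higher under TSA, where 1.32% of all genes were higher (0.0961% lower, 1.42% in all), and 61 under E6R, where 4.18% were higher (1.76% lower, 5.94% in all); in sign, 61 of 61 were higher under each. The fit gives each gene 1 estimate of spread for all treatments, so these calls are not independent of the DMSO calls in that respect. CAVIN1 stood at 653 and 114 CPM in TSA replicate 1, 380 and 119 in TSA replicate 2, 632 and 30.9 in E6R replicate 1 and 94.5 and 6.20 in E6R replicate 2. Its log2 fold change was 2.10 under TSA (adjusted p = 0.00607) and 4.20 under E6R (adjusted p = 2.31e-05). The test of the difference itself, treatment minus DMSO, called 0 genes for TSA and 0 for E6R in edgeR (0.0% each), and DESeq2 called 0 for both. In edgeR, 365 and 278 of the 13529 genes tested had an unadjusted p under 0.05. Outside the score, the mesenchymal list had 14 genes higher under TSA and 20 under E6R, with medians of 1.73 and 2.22. The genes of the mitochondrial genome had median log2 ratios of -1.50 and -0.15 in the TSA libraries, -0.43 and -1.71 in the E6R libraries and -0.08 and -0.18 in the DMSO libraries (replicates 1 and 2), and their part in those calls was not tested.

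**Figure D5:**
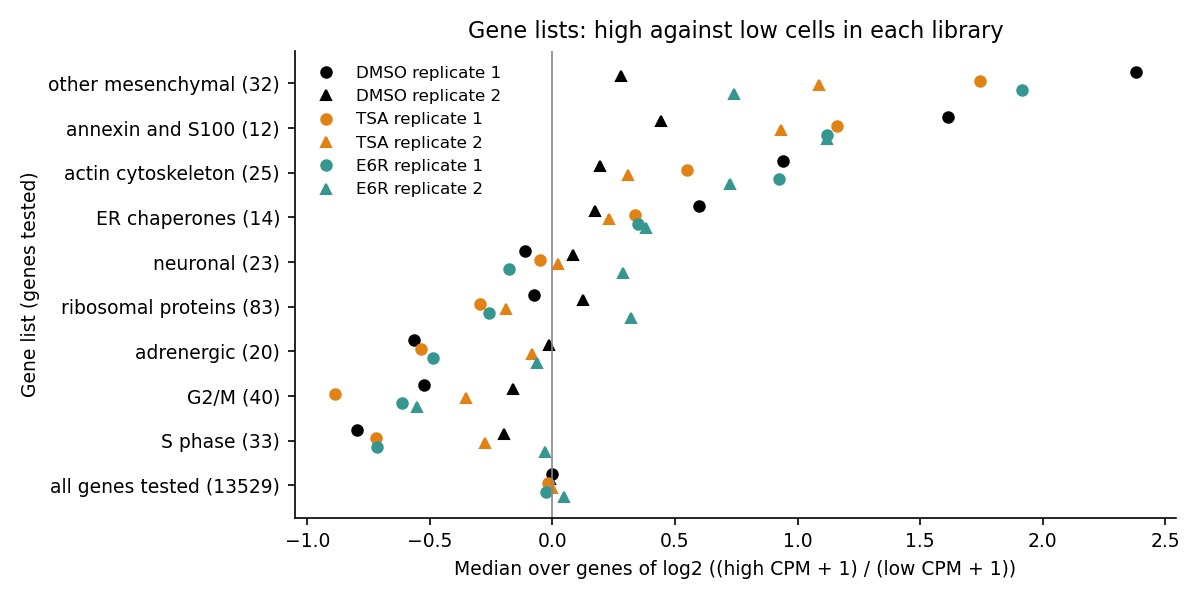
Median over the genes of each list of the log2 ratio between high and low cells, on CPM + 1 (x axis), for 10 lists (y axis, genes tested in brackets) in each of the 6 libraries. For the mesenchymal genes outside the score DMSO replicate 1 stands at 2.38 and DMSO replicate 2 at 0.28, the 2 ends of the range.

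The score spread farther in the library numbered 1 than in that numbered 2 under each of the 3 treatments: its variance was 7.84 and 4.33 times that of counting error under TSA and 5.95 and 3.11 times under E6R. In a fit of side within replicate number, added after these values were seen, 1352 genes (9.99%) were higher and 816 (6.03%) lower in high cells of the libraries numbered 1. In those numbered 2, 169 genes (1.25%) were higher and 57 (0.421%) lower, 1.67% in all. The mesenchymal list outside the score had 27 of 32 genes higher in the libraries numbered 1 and 15 of 32 in those numbered 2. In the libraries numbered 1, 25 of 33 S phase, 31 of 40 G2/M and 9 of 20 adrenergic genes were lower. In those numbered 2 it was 0, 2 and 2. The difference between the numbers passed for 52 genes (0.384%), 37 with a positive difference (0.273%) and 15 with a negative difference (0.111%).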

How the data were processed

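UMI counts per gene and barcode were deposited as matrices of 36601 genes, not normalized; per the submitters' processing notes they were made with STARsolo 2.7.9a and GRCh38. The annotation, barcode rule and strand rule are not stated there, so genes overlapping on either strand were not separated. The members and gene lists were chosen with earlier results of these data known.

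UMIs of each library's high and low cells were summed (12 sums) and tested with edgeR 4.0.16 in R 4.3.3: quasi-likelihood, TMM, filterByExpr, library as block (both sides come from 1 library, so they pair by construction), side within treatment, Benjamini-Hochberg at 0.05. The common biological coefficient of variation was 0.173. The script was tested on simulated data. Standard errors come from F. Log2 ratios per library use CPM + 1. Those of the markers themselves use CPM with nothing added and with all score markers left out of the sum. Intervals from 2 libraries are wide, and depth limits genes of a few UMIs. No doublet caller was run. Named genes were the 12 largest rises and falls called with a mean of at least 50 CPM and 1 direction in both libraries, members of lists at that level, and 18 genes given regardless of result; others are marked, and a few genes the rule names are not reported here. Coordinates are GENCODE 29. Alternatives covered normalization, DESeq2 1.42.0, filters, score genes, depth, cell cycle and single libraries.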

Additional observations from a re-analysis of the deposited data

Results flagged for a closer look

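The difference between high and low cells was itself different between the libraries numbered 1 (DMSO, TSA and E6R) and those numbered 2, in a fit of side within replicate number that was added after seeing the data. The sources used here do not say what the number stands for. High against low called 2168 genes in the libraries numbered 1 and 226 in those numbered 2, and the difference passed for 52 genes, positive for 37 and negative for 15. S100A10 rose by 3.08 on the log2 scale in the libraries numbered 1 and 1.45 in those numbered 2, a difference of 1.64 (adjusted p = 0.0146). DBH had log2 fold changes of -0.96 and 0.20, a difference of -1.16 (adjusted p = 0.0280), and MYCN of -1.07 and -0.09, a difference of -0.98 (adjusted p = 0.0289). The cause was not tested.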

How the results depend on the processing

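The 63 genes called under DMSO became 57 with total counts only and 31 with DESeq2, 270 with no filter on low counts, 131 with at least 1500 UMIs per cell, 159 with the top and bottom 10% of cells, 5 with cells thinned to 1000 UMIs, 37 without the 5% of cells with most UMIs and 98 in cells with a low share of cell cycle UMIs. With no replicate block, and with the DMSO libraries only, the count was 0. Thinning also widened the sides through tied scores, to 837 high and 845 low of 1682 cells in DMSO replicate 2. Leaving out each library gave 2 to 468, the ends being without DMSO replicate 1 and without DMSO replicate 2; without a TSA or E6R library it was 212 to 301. Without cells of a score of 1% or more, an alternative added after seeing the data, it was 86. The difference from DMSO under TSA, 0 genes, became 11 with no filter, 8 without DMSO replicate 1, 22 without DMSO replicate 2, 1 (CAVIN1) without TSA replicate 1, 3 (C7, FLNC and CAPN6) without TSA replicate 2, 1 (CAVIN1) without E6R replicate 1 and 0 without E6R replicate 2. That under E6R, 0 genes, was 7 without DMSO replicate 1 and 7 without E6R replicate 1, in a range of 0 to 7. Genes that were not called changed sign: over the fits without 1 library, ending with the one without DMSO replicate 1, HAND2 ran from -0.199 to 0.18 (log2), GATA3 from -1.07 to 0.0041, DBH from -1.09 to 0.093, CHGB from -1.34 to 0.065, MYCN from -1.15 to 0.088 and MALAT1 from -0.285 to 0.046; HAND2 was at 0.19 with the top and bottom 10% and 0.054 in cells of low cell cycle share; MALAT1 was at 0.067 with the top and bottom 50%; STMN2 was at -0.0088 with total counts, -0.022 with 10%, -0.098 thinned, -0.12 with the score without S100A6 and -0.24 to 0.384 without DMSO replicate 2 and 1. Over 29 named genes and all alternatives, 559 results kept direction and side of the threshold, 36 became and 57 ceased to be called. Cause was not tested, apart from fewer samples or UMIs where a setting removes them. The 2 DMSO libraries, and the few marker UMIs per cell, limit all results.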

Other observations

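Further single genes among the 52 that differed between the libraries numbered 1 and 2, picked after their values were seen, are given as values, with no test of any group they belong to. LAMA4, a laminin chain, had log2 fold changes of 2.02 in the libraries numbered 1 and 0.08 in those numbered 2 (adjusted p of the difference 0.00945), LAMB2, another laminin chain, of 1.49 and 0.13 (0.0289) and HSPG2, the proteoglycan perlecan, of 2.21 and 0.02 (0.0222). FEV, a transcription factor of serotonergic neurons, had log2 fold changes of -2.12 and 0.33 (0.00271), DLK1, a Notch-like surface protein, of -1.87 and -0.33 (0.0134), CPLX2, a regulator of vesicle release, of -2.06 and -0.52 (0.00271), and the neuropeptide GAL of -0.999 and 0.55 (0.0129). The neuronal list as a whole had 3 of 23 genes higher and 3 lower in the libraries numbered 1, with a median of -0.18. Of all genes tested, 9.99% were higher and 6.03% lower there, so these few neuronal genes do not set the list apart. In the libraries numbered 2 it had 0 and 0, with a median of 0.17, beside 1.25% and 0.421% of all genes.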
